A study of Homo sapiens with 24 samples.

Results

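The keratin genes of PANC-1 cells, a line from a human pancreatic ductal carcinoma, were examined for 3 histone modifications. Members were all protein-coding genes on chromosome 12 or 17 of the GENCODE annotation of hg19 whose symbol is KRT followed by a digit, which left out the keratin-associated proteins (KRTAP). The rule gave 55 of 20163 protein-coding genes, 27 on chromosome 12 and 28 on chromosome 17. By where each keratin is known to be made, 6 were classed as simple epithelial, 22 as stratified epithelial, 9 as hair root sheath and 17 as hair shaft keratins. KRT222, a short keratin-like gene, was left unclassed.

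Keratins are the intermediate filament proteins of epithelial cells. A type I keratin always pairs with a type II keratin, and the type II genes lie together on chromosome 12 and the type I genes on chromosome 17, except that type I KRT18 sits beside its type II partner KRT8. Simple epithelia such as pancreatic ducts are known for KRT8 and KRT18 with KRT7 and KRT19, stratified epithelia for pairs such as KRT5 with KRT14 or KRT1 with KRT10, and hair for a set of its own. H3K4me3 lies at active or poised promoters, H3K27ac at active promoters and enhancers, and H3K27me3 at chromatin silenced by Polycomb.

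Per the labels, PANC-1 cells received a control siRNA (siControl), the control siRNA with TGFβ at 10 ng/ml for 48 h (siControl+TGFβ), or an siRNA against PHF13 with the same TGFβ treatment (siPHF13+TGFβ). TGFβ drives epithelial cells towards a mesenchymal state, and PHF13 is a protein that binds H3K4me3. Each group had 2 ChIP-seq libraries per modification, which gave 18 peak lists, and 6 input samples were not analysed here. An siRNA lowers a transcript for a time and is no deletion, and the lists hold no measure of how far PHF13 fell. In ChIP from many cells, fewer cells carrying a mark and less of the mark per cell cannot be told apart.

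Peak names carry the code NC in the siControl lists and NCT in those labelled siPHF13+TGFβ, while those labelled siControl+TGFβ carry a different code. The study writes NCT for control siRNA with TGFβ, but its table of library quality lists peak numbers under the groups as the labels give them. All groups here follow the labels. If the lists of both TGFβ-treated groups had been exchanged, the depletion differences would reverse and the TGFβ comparison would use the wrong lists. The lists also differed in length, from 27869 to 39202 peaks for H3K4me3, from 6004 to 36104 for H3K27ac and from 59573 to 165717 for H3K27me3. The siPHF13+TGFβ replicate 1 list was the shortest for every mark, and its H3K27ac peaks covered 1.89 Mb against 11 to 31.9 Mb in the others. The duct markers EPCAM, CDH1, SOX9 and KRT19 had H3K4me3 near a start site of a coding transcript in all 6 lists and KRT7 in 1. CDH5 of endothelium and PTPRC and CD3E of leukocytes had it in 0, as did acinar PRSS1 and CPA1. Acinar CELA3A had it in some lists, and COL1A1 and PDGFRB of the 3 fibroblast markers in all 6, with DCN in 0. PECAM1 was not matched. EPCAM, CDH1, COL1A1 and PDGFRB also had H3K27me3 near a start site in at least 2 lists, and CDH1 had H3K27ac in fewer than 2.

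The sequence just upstream of the transcription start site (TSS) is shown for a pair of keratins without H3K4me3 at the TSS. It was read from GRCh37, which has the sequence of hg19, upstream of the TSS of the Ensembl canonical transcript. KRT10 (chr17:38978867-38979116, minus strand) stands for a TSS with no peak beside a strongly marked neighbouring start, and KRT31 (chr17:39553861-39554110, minus strand) for the hair keratins that had no peak in any list. Letters run 5′ to 3′ towards the TSS, and capitals mark CpG dinucleotides.
KRT10: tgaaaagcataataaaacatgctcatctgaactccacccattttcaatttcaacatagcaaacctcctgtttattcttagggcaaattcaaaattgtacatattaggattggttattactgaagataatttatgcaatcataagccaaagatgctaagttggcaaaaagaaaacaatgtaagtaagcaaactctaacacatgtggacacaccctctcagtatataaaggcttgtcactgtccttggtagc
KRT31: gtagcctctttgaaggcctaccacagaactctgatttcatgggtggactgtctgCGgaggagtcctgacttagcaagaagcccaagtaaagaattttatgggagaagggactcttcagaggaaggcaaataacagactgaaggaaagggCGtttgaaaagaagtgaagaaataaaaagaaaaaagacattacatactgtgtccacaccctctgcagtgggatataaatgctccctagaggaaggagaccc

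CpG dinucleotides were scarce in both, with 0 in the 250 bases upstream of KRT10 and 2 in those of KRT31. Within 500 bases of the TSS, the ratio of observed to expected CpG was 0.194 at KRT10 and 0.312 at KRT31, with a median of 0.269 over the 55 keratins and of 0.723 over all protein-coding genes. The ratio was 0.752 at KRT19, 0.713 at KRT7, 0.691 at KRT18, 0.344 at KRT8 and 0.293 at KRT80. Only a few other keratins came above 0.5, namely KRT72 at 0.611, KRT81 at 0.552 and KRT85 at 0.523.

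Of short motifs looked for on both strands of the 250 bases upstream, TATAAA, the letters of a TATA box, was in 27 of 55 keratins (49.1%) against 9.4% of all protein-coding promoters. It was in 12 of 17 hair keratins and in 1 of the 6 simple keratins, KRT8. GGGCGG, a GC box, was in 18.2% of keratins and 58.6% of all promoters, and its letters cannot overlap those of the TATA box. TGANTCA, the letters bound by AP-1, was in KRT13, KRT14, KRT15, KRT16 and KRT17 (9.09%) against 4.72% of all promoters. CAGGTG, an E-box, was in 15 keratins (27.3%) and in 17.4% of all promoters. KRT8, KRT18, KRT19 and KRT80, named because they had H3K4me3 at their own TSS, all held it. It was also in keratins without that mark there, such as KRT17 and KRT86. Of all protein-coding genes with H3K4me3 within 1 kb of the TSS in all 6 lists, 15.5% held it. A link between motif and mark was not tested. The ends of CAGGTG can share letters with the GC box or the AP-1 motif.

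**Figure D1:**
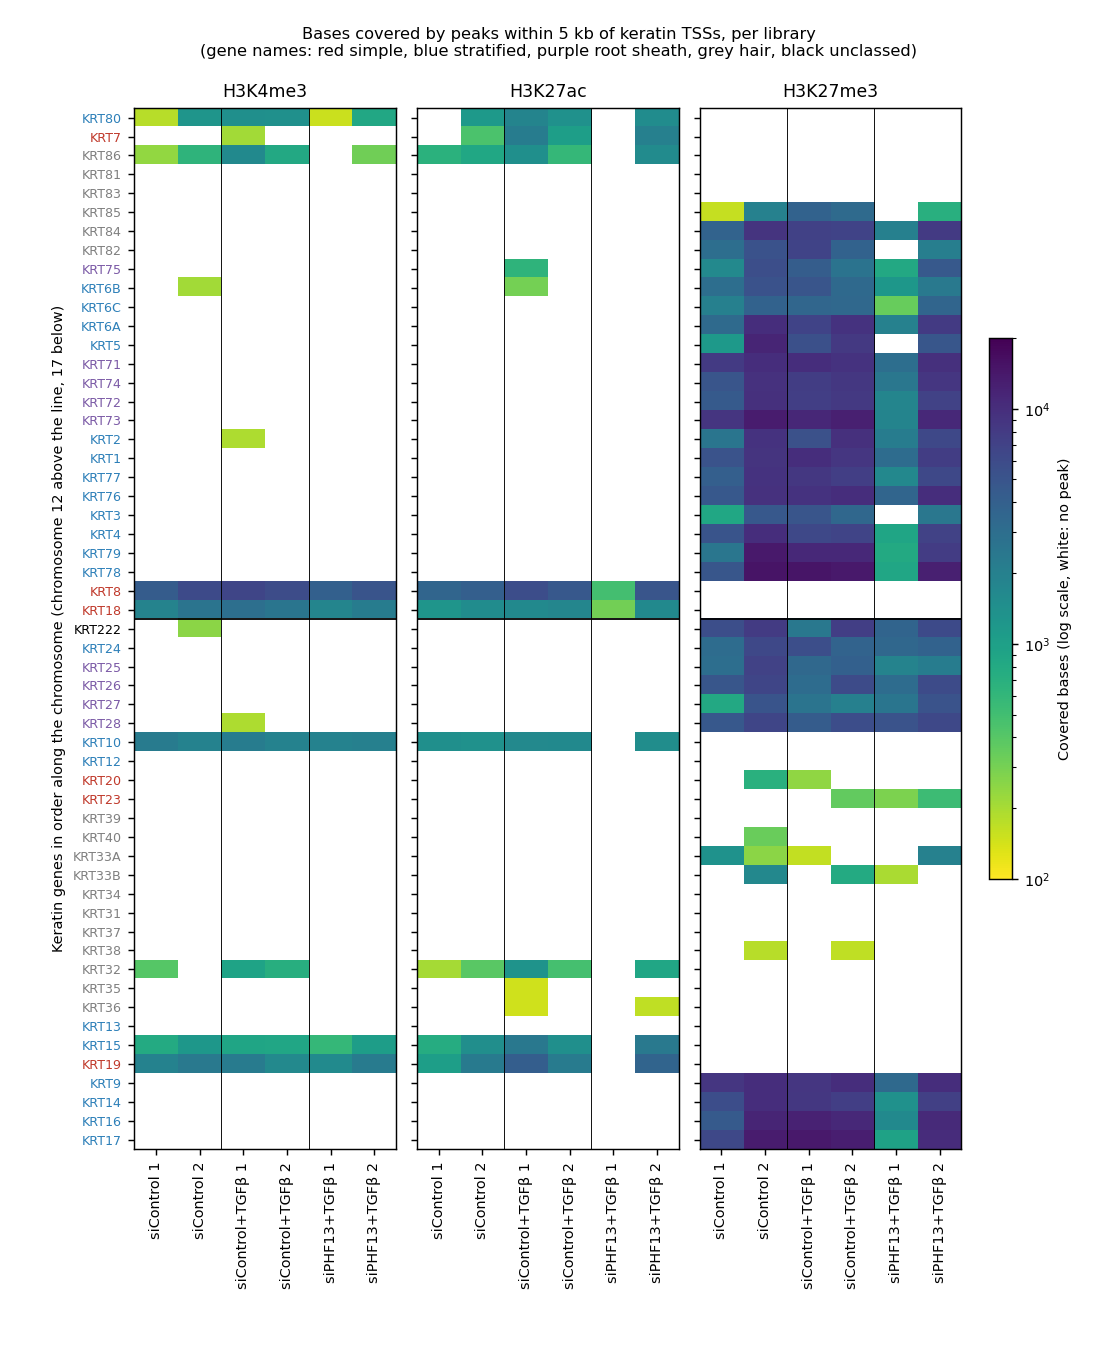
Bases covered by peaks within 5 kb of each keratin's TSSs (colour, log scale, white for no peak), with genes in chromosome order down the side and the 6 libraries of each mark across. H3K27me3 is present over long runs of neighbouring genes in most or all of the 6 lists. The rows with H3K4me3 in all 6 lists (KRT80, KRT8, KRT18, KRT10, KRT15 and KRT19) are white for H3K27me3.

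Keratins were divided between few genes with active marks and many with H3K27me3. The measure was the number of bases that peaks of a list covered within 5 kb of any TSS of a gene's coding transcripts. H3K4me3 was present in all 6 lists at 6 of 55 keratins (10.9%), against 72.5% of all protein-coding genes. H3K27ac was present in all 6 at 2 (3.64%), against 21%, and in at least 5 at 7 (12.7%), against 49.5%. H3K27me3 was present in all 6 at 26 (47.3%), against 21.8% of all genes. None of the 6 keratins with H3K4me3 in all lists had an H3K27me3 peak in any. No keratin thus combined H3K4me3 in all 6 lists with H3K27me3 in at least 1, against 29.2% of all protein-coding genes. That share is taken over all genes, of which a far larger part than of keratins had H3K4me3 in all 6 lists. A single H3K4me3 peak in 1 list each was found at KRT6B, KRT2, KRT222 and KRT28, which lay in H3K27me3. These shares are a description, with no test. The marks were also cut at unlike thresholds, with a lowest −log10 q of 1 to 1.01 in the H3K27me3 lists and 1.3 to 1.31 in the others. At a −log10 q of at least 3, H3K27me3 was in at least 2 lists at 2 keratins and 1021 of all protein-coding genes. By the same cut, H3K4me3 was at 8 keratins and 15340 genes, and H3K27ac at 9 keratins and 12381 genes.

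The classes differed. H3K4me3 was in all 6 lists at 3 of 6 simple keratins (KRT8, KRT18 and KRT19), at 3 of 22 stratified keratins (KRT10, KRT15 and KRT80) and at 0 of 9 root sheath and 0 of 17 hair keratins. H3K27me3 was in all 6 lists at 0 of 6 simple, 15 of 22 stratified, 9 of 9 root sheath and 1 of 17 hair keratins. No peak of any mark was found at 6 of 17 hair keratins, nor at the stratified keratins KRT12 of the cornea and KRT13 of mucosal epithelia. The other keratins were 10 with H3K4me3 or H3K27ac in at least 2 lists, 30 with H3K27me3 in at least 5, 6 with H3K27me3 in 1 to 4 and KRT35, with a single H3K27ac peak.

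KRT8 and KRT18, the first keratin pair of the embryo and the main pair of simple epithelia, carried H3K4me3 in every list. KRT8 had the widest of the family in each, and KRT18 had less than KRT10 or KRT19 in 3 of 6 lists. KRT8 lies on chromosome 12 (53290971 to 53343738, minus strand), and its record runs up to KRT18 (53342655 to 53346690, plus strand) because alternative KRT8 transcripts start 658 bp from a KRT18 TSS. Below, values are given for replicates 1 and 2 of siControl (without TGFβ), siControl+TGFβ (with TGFβ) and siPHF13+TGFβ (after depletion). H3K4me3 at KRT8 covered 4285 and 6105 bp without TGFβ, 6576 and 5817 bp with TGFβ and 3900 and 5041 bp after depletion. At KRT18 it covered 1878 and 2591, then 2865 and 2553, then 1780 and 2163 bp in the same order. No library lacked either, and over all TSSs of each gene the siControl+TGFβ libraries were above the siPHF13+TGFβ libraries.

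Part of the KRT8 value belongs to the shared end. Within 5 kb of the canonical KRT8 TSS (53298860) alone, H3K4me3 covered 1849 to 2249 bp in the 6 lists. It covered 2162 and 2188 bp without TGFβ, 2239 and 2110 bp with TGFβ and 1849 and 2249 bp after depletion, so that all groups overlapped there. The peak at this TSS, from 53296626 to 53298916 when lists were merged, spanned the TSS and exonic sequence of KRT8. A further site in all 6 lists, from 53318429 to 53319900, lay in an intron of the long KRT8 transcripts, and the third (53342445 to 53345348) spanned the starts of KRT18 and of alternative KRT8 transcripts. The strongest KRT18 peak ranked within the top 6.99% to 23.8% of its H3K4me3 list, with a fold enrichment over input of 4.14 to 6.26.

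H3K27ac was also within 5 kb of a TSS of both genes in every list, the only keratins for which that held. At KRT8 it covered 3538 and 4054 bp without TGFβ, 5729 and 4693 bp with TGFβ and 486 and 4929 bp after depletion. At KRT18 it covered 1251 and 1520, then 1618 and 1761, then 310 and 1609 bp. The low siPHF13+TGFβ value at each gene was that of replicate 1, whose list held the 6004 peaks.

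KRT19, a type I keratin of ducts (chromosome 17, 39679869 to 39684560, minus strand), had H3K4me3 over its TSS in all 6 lists. It covered 1924 and 2358 bp without TGFβ, 2186 and 1661 bp with TGFβ and 1592 and 2212 bp after depletion, so that all groups overlapped. H3K27ac covered 1036 and 2278, then 4110 and 2185, then 0 and 3597 bp. The acetylation was spread over several sites, among them 39685299 to 39686519 upstream of the TSS in 5 lists and 39683038 to 39684453 inside the gene in 4. Another, from 39677472 to 39679166 in 5 lists, covered a start and exonic sequence of the neighbour KRT15.

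KRT7, the type II keratin of ducts (chromosome 12, 52626304 to 52645970, plus strand), had acetylation without H3K4me3 at its TSS. H3K27ac within 5 kb covered 0 and 444 bp without TGFβ, 2165 and 1033 bp with TGFβ and 0 and 1978 bp after depletion. The acetylated sites lay upstream, from 52623364 to 52625182 over the pseudogene METTL7AP1, and in an intron, from 52629265 to 52629854, each in 4 lists. The only H3K4me3 peak in the window was 208 bp in siControl+TGFβ replicate 1 (52623967 to 52624174), upstream of the gene. Outside this window, an internal start of KRT7 had H3K4me3 in 3 lists (52637866 to 52638608). H3K27ac lay over the same start in 5 lists (52637221 to 52638833). Within 1 kb of the canonical TSS, 0 of 18 lists had a peak. Its CpG ratio of 0.713 was high among keratins and close to the median of all protein-coding genes. Of the 10477 protein-coding genes with a ratio at or above that of KRT7, 93.6% had H3K4me3 within 1 kb of the TSS in all 6 lists and 4.1% in none.

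The last of the simple keratins, KRT20 of gut epithelium and KRT23, had no active mark in any list. H3K27me3 at KRT20 covered 697 bp in siControl replicate 2 and 239 bp in siControl+TGFβ replicate 1. At KRT23 it covered 358 bp in siControl+TGFβ replicate 2, 285 bp in siPHF13+TGFβ replicate 1 and 534 bp in replicate 2. The remaining lists had 0 at both genes, and neither lay in a block of H3K27me3.

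**Figure D2:**
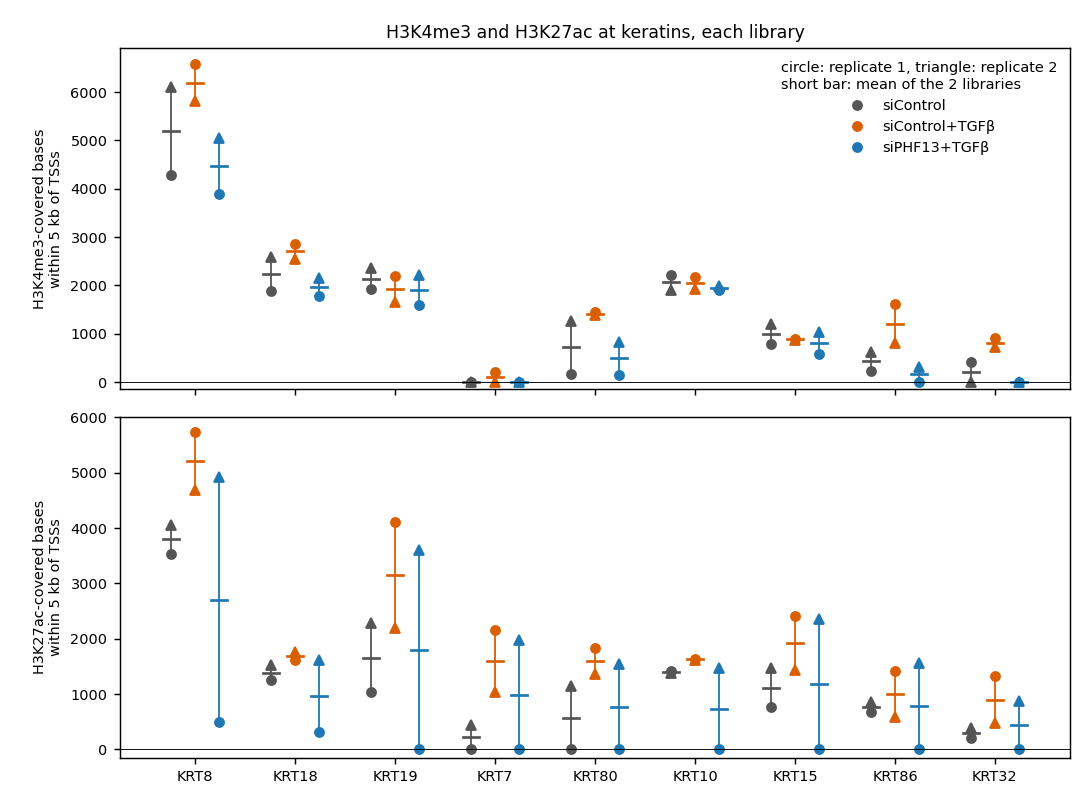
Bases covered by H3K4me3 (upper panel) and H3K27ac (lower panel) within 5 kb of the TSSs of 9 keratins, with a point per library and a short bar at the mean of the 2 libraries of a group. At KRT8 the H3K4me3 values run from 3900 to 6576 bp, and at all 9 genes siPHF13+TGFβ replicate 1 has the lowest H3K27ac or shares 0 with another library.

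Among the stratified keratins, KRT80 alone had H3K4me3 at its own TSS. KRT80 (chromosome 12, 52562780 to 52585798, minus strand) is a type II keratin found at cell margins. H3K4me3 covered 176 and 1267 bp without TGFβ, 1441 and 1396 bp with TGFβ and 154 and 834 bp after depletion. The TSS peak ranked low, within the top 46.8% to 95.4% of its list. H3K27ac covered 0 and 1145, then 1838 and 1364, then 0 and 1535 bp, so that both siControl+TGFβ libraries were highest for H3K4me3, while for H3K27ac siPHF13+TGFβ replicate 2 lay between them.

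KRT10 and KRT15 entered the count through neighbouring starts. KRT10, the suprabasal type I keratin of skin (chromosome 17, 38974369 to 38978866, minus strand), had H3K4me3 of 1902 to 2225 bp in the 6 lists and H3K27ac of 1376 to 1636 bp in 5, with 0 in siPHF13+TGFβ replicate 1. These peaks lay 2486 to 4734 bp downstream of its TSS, from 38974132 to 38976380, over its 3′ exons and the start of the antisense lncRNA KRT10-AS1. They ranked above the KRT18 peak in all lists but that of siPHF13+TGFβ replicate 1, within the top 1.22% to 9.92% of their lists and 6.54-fold to 8.65-fold over input. Within 1 kb of the KRT10 TSS, 0 of 18 lists had a peak.

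KRT15, a type I keratin of basal cells, showed 588 to 1209 bp of H3K4me3, mostly the KRT19 peak, since KRT15 and KRT19 have coding TSSs 2916 bp apart. Within 1 kb of its canonical TSS it had no peak in any list. Counted within 1 kb of the canonical TSS, H3K4me3 was in all 6 lists at 4 keratins (KRT8, KRT18, KRT19 and KRT80; 7.27%), against 66.6% of all protein-coding genes. That alternative was chosen after the data were examined.

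Of the hair keratins, KRT86 and KRT32 had active marks in several lists, again away from the canonical TSS. KRT86 had H3K4me3 of 235 and 633 bp without TGFβ, 1607 and 818 bp with TGFβ and 0 and 317 bp after depletion. Of its 3 coding TSSs, the first lies inside the KRT7 record, and the sites were 52637866 to 52638608 over an internal start of KRT7 (3 lists) and 52672352 to 52673127 over the start of a lncRNA (5 lists). H3K27ac covered 682 and 853, then 1421 and 588, then 0 and 1553 bp. A further H3K27ac site inside the KRT86 record, from 52673294 to 52675807, was in 6 lists but lay mostly beyond 5 kb of a TSS.

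KRT32 had H3K4me3 of 408 and 0 bp without TGFβ, 918 and 718 bp with TGFβ and 0 and 0 bp after depletion. These peaks lay in an intron (39620789 to 39621726, 3 lists) and upstream (39626328 to 39626530, 2 lists). H3K27ac covered 204 and 384, then 1319 and 482, then 0 and 868 bp. KRT36 had H3K27ac in 2 lists. KRT75, KRT6B and KRT35 had it in siControl+TGFβ replicate 1 only.

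**Figure D3:**
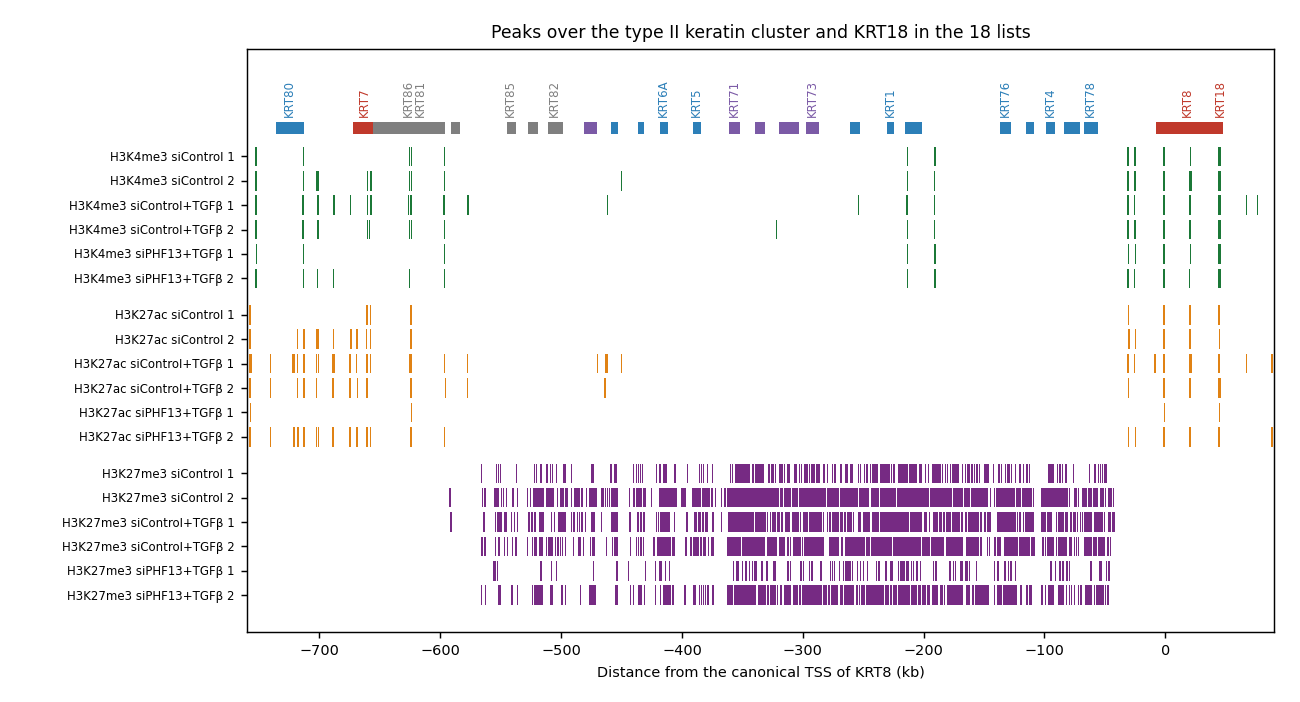
Peaks of the 18 lists over the type II cluster and KRT18, against distance from the canonical TSS of KRT8 in kb, with peaks under 1 kb drawn 1 kb wide and gene records on top (red simple, blue stratified, purple root sheath, grey hair). H3K27me3 peaks lie within the span from KRT85 to KRT78 in every list and stop 41.7 to 48.3 kb short of the KRT8 TSS. They are sparse in siPHF13+TGFβ replicate 1, where they cover 13.2% of the span.

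H3K27me3 over the type II genes formed a single block. From KRT85 to KRT78 (chromosome 12, 52753790 to 53242876, 489 kb) lie 20 keratins. H3K27me3 peaks covered 34.1% and 73% of this span without TGFβ, 58.7% and 61.2% with TGFβ and 13.2% and 54.1% after depletion. That was 7.72 to 10.9 times the share of the genome covered by the same list. The block holds the basal keratin KRT5, the wound keratins KRT6A, KRT6B and KRT6C, the skin keratins KRT1 and KRT2, the mucosal KRT4 and all type II root sheath keratins.

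On either side the pattern changed within a short distance. H3K27me3 covered at most 0.321% of the 152 kb from KRT80 to KRT83, where KRT81 and KRT83 had no peak of any mark near their TSSs. H3K27ac covered 1.99 to 9.43 times the genome share of its list over this stretch, above that share in 6 lists. From KRT8 to KRT18 it covered 0% in all 6 lists. The last H3K27me3 peak before KRT8 ended 48.3 and 42.7 kb from its TSS without TGFβ, 41.7 and 45 kb with TGFβ and 46.1 and 46.4 kb after depletion. On the far side the next peak began 177 to 185 kb away.

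**Figure D4:**
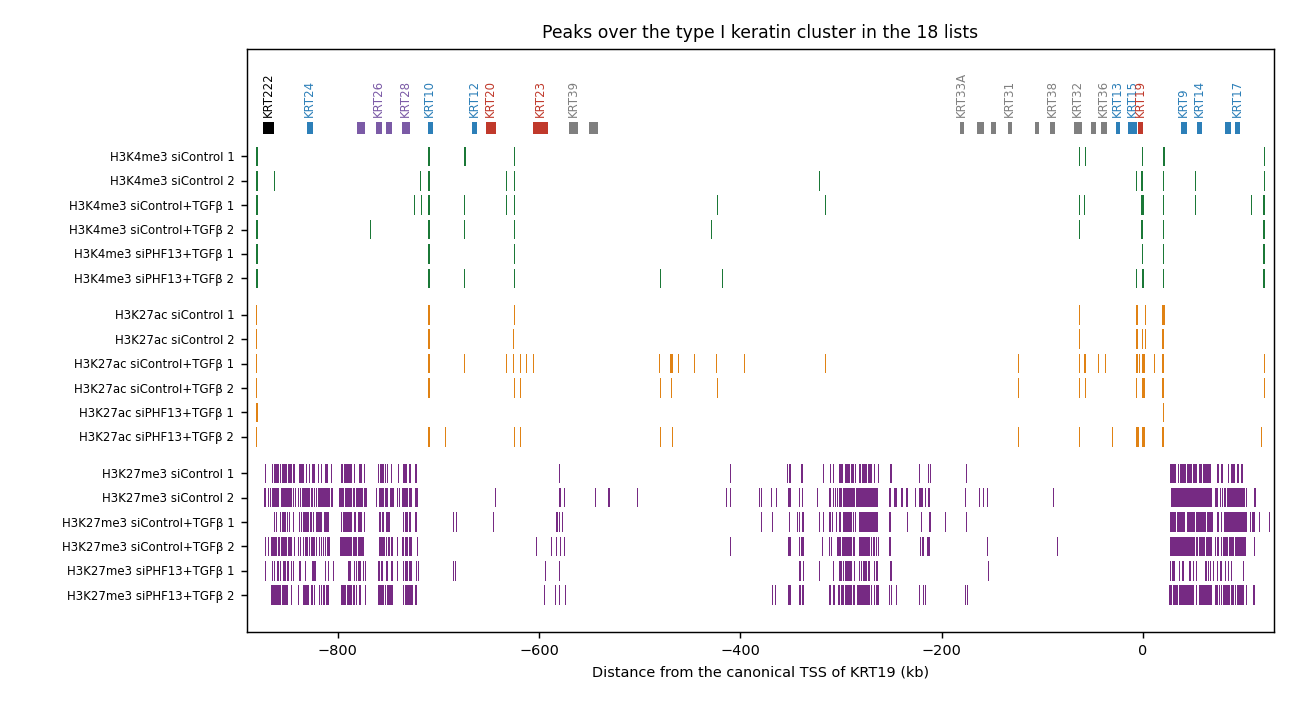
Peaks of the 18 lists over the type I cluster, against distance from the canonical TSS of KRT19 in kb, drawn as for the type II cluster. H3K27me3 lies over KRT222 to KRT28, over part of the KRTAP genes near the middle and over KRT9 to KRT17, and leaves KRT10, KRT12, most hair keratins and KRT15 to KRT19 clear.

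Over the type I genes H3K27me3 formed separate blocks. From KRT222 to KRT28 (chromosome 17, 38810917 to 38956211, 145 kb, 6 keratins) it covered 34.4% and 62.5% without TGFβ, 37% and 49.6% with TGFβ and 24.4% and 40.2% after depletion. From KRT9 to KRT17 (39722088 to 39781094, 59 kb, 4 keratins) it covered 54.3% and 86.9%, then 76.7% and 80.1%, then 21.1% and 74.7%. The latter block holds KRT14, the basal partner of KRT5, and KRT16 and KRT17, which are known from wounded skin and skin appendages. Coverage was 6.59 to 15.6 times the genome share in the former and 9.19 to 16 times in the latter.

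Hair keratins of type I were mostly bare. From KRT33A to KRT13 (39502344 to 39661957, 160 kb, 10 keratins) H3K27me3 covered 0.101% to 1.32%, which was 0.0188 to 0.247 times the genome share. From KRT12 to KRT40, H3K27me3 covered 0.568% to 2.6%, below the genome share in 6 of 6 lists. KRT31, KRT34, KRT37 and KRT39 had no peak of any mark within 5 kb. KRT33A had H3K27me3 in 4 lists, KRT33B in 3, KRT38 in 2 and KRT40 in 1, none above 1941 bp. The 34 KRTAP genes between them had H3K27me3 in all 6 lists at 9 (26.5%), among them KRTAP9-1, and H3K4me3 in all 6 at 0.

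The H3K27me3 near keratin TSSs differed in width between libraries. Summed over all its TSSs, of which it has 3, KRT78 had the most on average, with 4872 and 15080 bp without TGFβ, 14781 and 13973 bp with TGFβ and 861 and 12518 bp after depletion. KRT73, a root sheath keratin, had 8866 and 13228, then 11024 and 12429, then 1819 and 10855 bp. KRT17 had 6284 and 13221, then 14014 and 12795, then 947 and 10149 bp. At all 3 genes the lowest library was siPHF13+TGFβ replicate 1. Genes with more TSSs have wider windows, and within 5 kb of the canonical TSS alone KRT78 had 404 to 8286 bp, KRT9 3256 to 10001 bp and KRT71 2944 to 10001 bp.

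KRT16 had 4454 and 11555, then 11933 and 10886, then 1604 and 10723 bp in the same order. KRT9, known from palm and sole, had 8681 and 10007, then 8729 and 10007, then 3256 and 10007 bp. KRT14 had 5755 and 10001, then 8459 and 7489, then 1367 and 7349 bp. KRT5 had 1157 and 11495 bp without TGFβ, 5530 and 8237 bp with TGFβ and 0 and 4801 bp after depletion, so that the basal pair was marked together in 5 of 6 lists.

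Some partners were not marked alike. KRT1 lay in H3K27me3 (3087 to 10001 bp) while its partner KRT10 had none in any list. KRT4 and KRT3 lay in H3K27me3 while their partners KRT13 and KRT12 had no peak at all. KRT8 and KRT18 were alike in all 3 marks. Near-identical copies limit what can be read from some members: of the 50-base words within 5 kb of the canonical TSS, 28.5% at KRT81, 20.5% at KRT6C, 17.9% at KRT6B and 11.8% at KRT6A recur elsewhere in these clusters, against at most 5.75% at every other keratin.

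**Figure D5:**
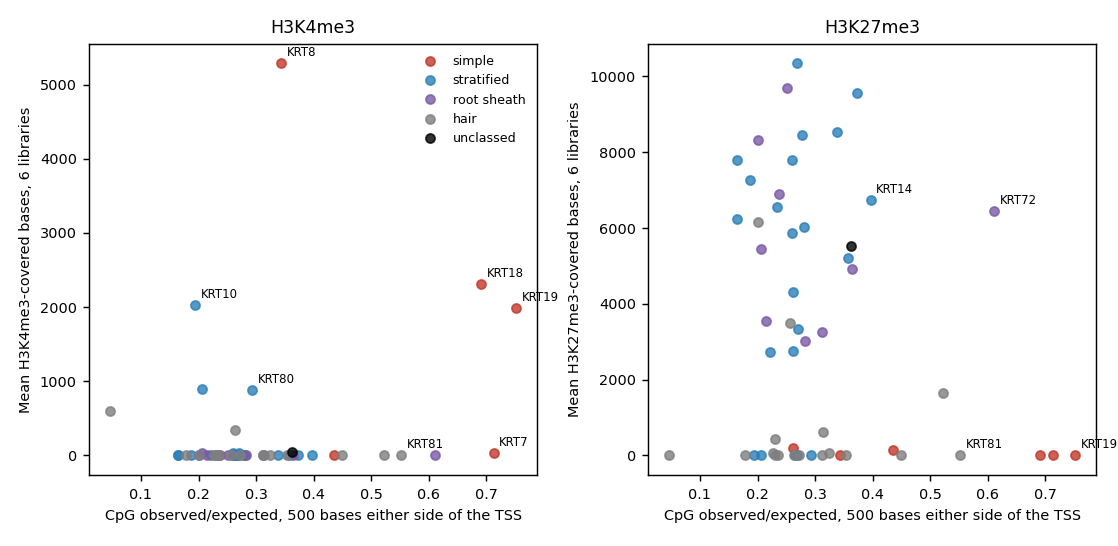
Mean bases covered by H3K4me3 (left) and H3K27me3 (right) over the 6 libraries of each keratin against the ratio of observed to expected CpG around its TSS, coloured by class. KRT18 and KRT19 combine a ratio above 0.69 with H3K4me3, and most keratins with H3K27me3 lie below 0.4. KRT7 has such a ratio and almost no H3K4me3 within 5 kb of its coding TSS.

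The keratins with H3K27me3 were poor in CpG. The 26 with H3K27me3 in all 6 lists had a median CpG ratio of 0.261 and a range from 0.164 to 0.611, and the 4390 protein-coding genes with H3K27me3 in all 6 lists had a median of 0.674. The 8 keratins with no peak had a median of 0.271, close to the 0.26 of the 1588 protein-coding genes with no peak. The 4 keratins with H3K4me3 at their own TSS had a median of 0.518, and all protein-coding genes marked so had 0.791. No test was made of these medians.

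TGFβ against siControl was tested with limma on log2(bp + 200) over all protein-coding genes with a peak in at least 2 of 6 lists. With H3K4me3, 6 of 15412 genes passed a Benjamini-Hochberg adjusted p under 0.05 (0.0389%), and 0 of the 8 keratins tested. With H3K27ac, 0 of 12497 genes passed (0%) and 61 had an unadjusted p under 0.05, of which 0 were among the 10 keratins tested. That fit gave each of the 10 keratins the same SE of 1.19, a spread that also takes in the short siPHF13+TGFβ replicate 1 list. With limma on the 4 libraries of the comparison alone, 958 genes had an unadjusted p under 0.05, 957 of them higher. Among these was 1 of the 10 keratins, and 0 genes passed. With H3K27me3, 0 of 8255 genes passed (0%) and 99 had an unadjusted p under 0.05, with 0 of 35 keratins. The p-values measure only the spread between these libraries, since the labels do not say whether they came from separate cultures.

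The median log2 difference in H3K27ac was 0.57 over the keratins tested and 0.53 over all genes tested. With lists of equal length these medians were 0.08 and 0.31, with the 50% strongest peaks 1.38 and 0.58, and with libraries centred on their median 0.03 and -0.01. KRT7 had the highest fitted difference, 2.25 (SE 1.19, limma adjusted p = 0.977). KRT19 had 0.87 (SE 1.19, the same adjusted p) and KRT8 0.43. Both siControl+TGFβ libraries lay above both siControl libraries at 6 of 10 keratins tested (KRT80, KRT7, KRT8, KRT18, KRT10 and KRT32) and at 55.6% of all genes tested. With lists cut to equal length, 2 of 4 keratins still tested did so (KRT18 and KRT10), against 46.2% of genes.

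For H3K4me3, the median difference was 0.27 over keratins and 0.12 over all genes. Over keratins it was 0.08 without siControl replicate 1 and 0.50 without replicate 2. Lists cut to equal length gave 0.02 over keratins and 0.10 over all genes. KRT32 had 1.54 (SE 0.54, limma adjusted p = 0.869), KRT80 1.12, KRT18 0.27, KRT8 0.26 and KRT19 -0.15. Both siControl+TGFβ libraries were higher at KRT80, KRT86 and KRT32, which is 3 of 8 keratins, against 47.3% of all genes. With lists of equal length only KRT80 did so, and the KRT32 difference became -0.30. Within 2.5 kb of a TSS, KRT32 was 1 of 5 genes of 14943 that passed the limma test. Its difference was 1.86 (SE 0.104, limma adjusted p = 0.05 after rounding up from just below). The siControl peaks of KRT32 fell outside that window, and its siPHF13+TGFβ libraries had no peak there. Both of these groups were thus at 0 bp, and only the siControl+TGFβ pair could vary. The small SE rests on these zeros, so the pass cannot show a change at KRT32.

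For H3K27me3, the median difference was 0.23 over keratins and 0.08 over all genes, and it turned to -0.33 and -0.55 without siControl replicate 1 and became 0.77 and 0.67 without replicate 2. Both siControl+TGFβ libraries lay above siControl at KRT85 and below it at KRT33A, which is 1 of 35 keratins each, against 6.41% and 7.26% of all genes. KRT85 had a difference of 2.08 (SE 1.18) and KRT14 of 0.07 (SE 0.98), both with a limma adjusted p of 1. No keratin was gained, with a peak in both libraries of siControl+TGFβ and in neither of siControl, or lost, the reverse. Gained genes made up 0.332% of all protein-coding genes for H3K4me3, 1.72% for H3K27ac and 0.258% for H3K27me3, and lost genes 0.00992%, 0.00496% and 0.769%.

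PHF13 depletion under TGFβ was tested in the same fits, and the comparisons share the siControl+TGFβ libraries. With H3K4me3, 6 of 15412 genes passed (0.0389%), all lower, and 0 of 8 keratins. All 8 keratins had a negative fitted difference, with a median of -0.44, and the median of all genes tested was -0.21. KRT32 had -2.34 (SE 0.54, unadjusted p = 0.00839, limma adjusted p = 0.405). KRT86 had -2.08 (SE 0.61), KRT80 -1.42 (SE 0.82), KRT8 -0.46 (SE 0.22), KRT18 -0.425 (SE 0.185) and KRT19 -0.019 (SE 0.215), and none passed.

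Both siPHF13+TGFβ libraries lay below both siControl+TGFβ libraries for H3K4me3 at 5 of 8 keratins (KRT80, KRT86, KRT8, KRT18 and KRT32), against 61.7% of all genes. With lists of equal length it was 4 of 8, against 59.1%. KRT8 met this over all its TSSs, whereas within 5 kb of its canonical TSS alone these groups overlapped. Without siPHF13+TGFβ replicate 1 the keratin median was -0.29 and that of all genes -0.08. KRT32 was the only keratin that was lost, with H3K4me3 in both siControl+TGFβ and neither siPHF13+TGFβ library, as 0.64% of all protein-coding genes were. Genes gained in H3K4me3 made up 0.00496%, and 0 keratins were among them.

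For H3K27ac, 0 of 12497 genes passed limma (0%), 15 had an unadjusted p under 0.05, and 0 of 10 keratins had. The median difference was -1.45 over keratins and -1.09 over all genes. Without siPHF13+TGFβ replicate 1, the list of 6004 peaks, these medians were 0.16 and 0.14, and with centred libraries -0.05 and 0.31. Without replicate 2, which leaves that short list alone in its group, 9559 genes and 8 keratins passed. KRT19, for example, then had -4.00, against 0.24 without replicate 1 and -1.88 (SE 1.19) with both. The lone library is assumed there to vary like the others. The part of list length in this difference was not tested further.

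Both siPHF13+TGFβ libraries were lower in H3K27ac at 2 of 10 keratins (KRT18 and KRT10), against 10.5% of all genes. With lists of equal length it was 3 of 4 (KRT8, KRT18 and KRT10), against 19.8%. KRT18 in siPHF13+TGFβ replicate 2 had 1609 bp, next to 1618 and 1761 bp in siControl+TGFβ. No keratin gained or lost H3K27ac, and 0.00496% and 0.293% of all protein-coding genes did.

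For H3K27me3, 0 of 8255 genes passed limma (0%), 143 had an unadjusted p under 0.05, and among 35 keratins only KRT85 had, with a difference of -3.12 (SE 1.18, limma adjusted p = 0.84). The median difference was -0.91 over keratins and -0.81 over all genes, and without siPHF13+TGFβ replicate 1 it was -0.11 and 0. With libraries centred on their median it turned to 0.21 over keratins, 21 of them higher and 14 lower, and 0.31 over all genes. Both siPHF13+TGFβ libraries were lower at 15 of 35 keratins (42.9%), against 29.5% of all genes tested. With lists of equal length it was 15 of 30, against 26%. The 15 with the full lists were 11 of type II, among them KRT5, KRT6B, KRT1 and KRT78, and KRT25, KRT14, KRT16 and KRT17 of type I. With lists of equal length, KRT6C and KRT24 took the place of KRT85 and KRT82. Most of the keratins counted are neighbours in a few H3K27me3 blocks, where a single peak can lie near several TSSs. A peak of 32486 bp in siControl replicate 2, for example, lay near both KRT71 and KRT74. The members are therefore not independent, and these shares were not tested.

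At KRT17 the difference was -1.98 (SE 1.18), at KRT5 -2.80 (SE 1.72) and at KRT14 -1.25 (SE 0.98), each with a limma adjusted p of 0.84. At KRT17, siPHF13+TGFβ replicate 2 had 10149 bp against 12795 bp in the lower siControl+TGFβ library, and at KRT14 7349 bp against 7489 bp. No keratin gained or lost H3K27me3, and 0.149% and 1.66% of all protein-coding genes did.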

How the data were processed

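Per the labels and the study's methods, the authors trimmed reads with Trim Galore 0.4.1, aligned them to hg19 with Bowtie2 2.4.1, removed duplicates with Picard and called peaks per library with MACS2 2.2.7.1 against input. They deposited narrow peaks for H3K4me3 and H3K27ac and broad peaks for H3K27me3. The methods give a q of 0.001 for the narrow peaks, but the deposited narrow lists reach down to a −log10 q of 1.3, a looser cut. The deposited values per peak are a score, a fold enrichment (a ratio to input), the −log10 of p and q, and for narrow peaks a summit. The lists hold no reads, and read totals in the study's quality table were not used here. That table also gives more peaks than the deposited lists hold for siPHF13+TGFβ replicate 1 of each mark and H3K27me3 siControl replicate 1. The lists were used as deposited. Deeper or better enriched libraries give more and wider peaks. The −log10 values ranked and filtered peaks and the fold and score described them.

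Genes came from GENCODE release 44 on GRCh37. Bases covered by peaks within 5 kb of any coding TSS were compared with limma 3.58.1 in R 4.3.3 on log2(bp + 200), 6 libraries of a mark in 1 fit with no replicate block, tested on simulated data. Keratins were named by a rule: every simple keratin, others with an active mark in at least 2 lists, the 5 with most H3K27me3, and those called, gained or lost. KRT14, KRT5, KRT85 and other members named as examples were chosen after their values were seen. The members, classes and lists were chosen with earlier results of these data known. Some promoter sequences and a marker gene are not reported here. Alternatives are given in the closing section.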

Additional observations from a re-analysis of the deposited data

How the results depend on the processing

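The number of keratins with H3K4me3 in all 6 lists stayed between 4 and 6 under the other windows, TSS choices and peak filters, and between 6 and 7 without single libraries. With H3K27ac it was 2, but 0 with the 50% strongest peaks, 1 when a peak counted for the nearest TSS only, and from 2 to 7 without single libraries, the 7 without siPHF13+TGFβ replicate 1. With H3K27me3 it was 26, but 11 within 1 kb of a TSS, 10 within 1 kb of the canonical TSS (added later), 17 with the 50% strongest peaks and 0 at a −log10 q of at least 3, where 0.446% of all genes had it too.

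With TGFβ, the 6 genes called in H3K4me3 became 1 within 1 kb, 116 with the 50% strongest peaks, 11 at a −log10 q of at least 3, 12 with the 5-prime end of the gene only, 16 with the nearest TSS, 26 at a pseudocount of 50 bp, and 0 at 1000 bp, with a peak in all 6 lists, with centred libraries, with 4 libraries and without any single library. With depletion, the 6 became 1, 175, 15 and 12 under the first 4 of these, 30 at a pseudocount of 50 bp and 0 under the same last 5. Within 2.5 kb, 5 of 14943 genes were called in each comparison, 1 of them a keratin (KRT32). All siControl and siPHF13+TGFβ libraries had 0 bp at KRT32 in that window. Leave-one-out fits of H3K27ac with depletion called from 0 to 9559 genes and from 0 to 8 keratins, the upper values without siPHF13+TGFβ replicate 2. The cause of these changes was not tested.

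The labels do not say whether replicate numbers pair the samples. Deviations of same-numbered H3K4me3 libraries correlated at -0.411 (siControl with siControl+TGFβ), 0.529 (siControl with siPHF13+TGFβ) and -0.296 (both TGFβ-treated groups). In the same order they were -0.241, 0.262 and -0.0689 for H3K27ac and -0.0295, 0.181 and 0.0217 for H3K27me3. Lists of unlike length also produce deviations, so these values cannot settle the pairing. With a replicate block, 0 genes and 0 keratins were called in H3K4me3 in both comparisons, and 0 in the other marks.

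Some differences not called at the report's settings changed sign. With TGFβ, H3K4me3 became -0.297 at KRT32 and -0.0425 at KRT86 with lists of equal length, -0.000815 at KRT8 with the canonical TSS, and from -0.325 to 0.0337 at KRT19 over leave-one-out fits. H3K27ac became -0.0436 (equal lists) and -0.103 (centred) at KRT8 and -0.28 (centred) at KRT18. H3K27me3 became -0.0838 (centred) at KRT14 and -0.173 (50% strongest) at KRT85. With depletion, H3K4me3 at KRT19 became 0.0703 within 1 kb and 0.181 centred, and H3K27ac became 0.0192 (50% strongest) and 0.0273 (centred) at KRT7 and 0.424 (centred) at KRT18. Leave-one-out fits ranged, with depletion, from -0.234 to 0.195 for H3K4me3 at KRT19, from -3.09 to 0.351 for H3K27ac at KRT7 and from -4.0 to 0.244 at KRT19, and with TGFβ from -0.75 to 2.36 for H3K27me3 at KRT5 and from -0.322 to 0.454 at KRT14. Read depth was not used, so a missing peak is not an absent mark.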

Other observations

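Inside the H3K27me3 block of the type II genes, 2 sites had H3K4me3 in all 6 lists without being near a keratin TSS. The former, on chromosome 12 from 53084634 to 53085706, lay within the KRT77 record, and the latter, from 53107447 to 53108757, lay 10.8 kb from the KRT77 TSS. Both had H3K27me3 within 10 kb in 6 of 6 lists, and neither held an annotated TSS. Between KRT78 and KRT8, where H3K27me3 ends, H3K4me3 was in all 6 lists from 53267375 to 53268617 and from 53273151 to 53274238, and the former also had H3K27ac in 5 lists.

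On chromosome 17, a site 20.4 kb from the KRT19 TSS (39704063 to 39705805) had H3K4me3 in all 6 lists, with H3K27ac over it in 6 and H3K27me3 within 10 kb in 6. A site 18.4 kb from the KRT20 TSS had H3K4me3 in 6 lists and H3K27ac in 5.

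Plakins and other intermediate filament genes were set beside the keratins. All 7 plakins, which tie filaments to junctions and to each other (among them DSP, PLEC and EVPL), had H3K4me3 in all 6 lists, as did 8 of 15 other intermediate filament genes, among them VIM, LMNA and NES. Of all 20163 protein-coding genes, 14617 had H3K4me3 in all 6 lists and 4390 had H3K27me3 in all 6. H3K27me3 was in all 6 lists at 3 of the plakins (MACF1, DSP and PPL), together with H3K4me3, a combination found at 0 of 55 keratins and at 14% of all protein-coding genes.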
